A study of Mus musculus with 9 samples.

Results

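The genes described here are 50 germline and meiosis genes, listed by name and matched by symbol to the 48440 genes of the count tables. All 50 were found. They were arranged by role into 16 genes of the piRNA pathway and transposon control, 11 of the synaptonemal complex and chromosome axis, 9 of meiotic recombination, 8 of germ cell fate and meiotic entry, and 6 testis paralogs or genes of later spermatogenesis. The rule that lists them is by function and uses no measured value, but the list was drawn up with earlier results of these data known.

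The libraries hold polyadenylated RNA of J1, a line of mouse embryonic stem cells, grown with LIF and 2 kinase inhibitors (2i). All cells carried Suz12-AID, a fusion of the Polycomb repressive complex 2 (PRC2) subunit Suz12 to an auxin-inducible degron, so that the Mock cells are not untagged cells. The 3 groups were Mock, Auxin (50 µM auxin for 96 h) and Re-introduction (auxin washed out for 4.5 h), each with 3 libraries that the study calls biological replicates. Whether these came from separate cultures, how many clones were used and whether both alleles carry the tag is not given in the sources used here, so the p-values measure the spread between these libraries. The labels used here give no auxin dose or duration before washout for Re-introduction. No untagged cells given auxin were among the libraries, so effects of auxin itself and of Suz12 loss cannot be told apart. The degron acts on the protein, and the Suz12 mRNA therefore does not check the labels. It was at 125, 136 and 138 CPM (counts scaled by library total and TMM factor) in Mock, 149.8, 122 and 152 CPM in Auxin, and 166, 173 and 164 CPM in Re-introduction.

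Germ cells protect their genome from transposons with piRNAs, small RNAs that PIWI proteins carry and that Tudor-domain proteins help to assemble into granules. In meiosis, homologous chromosomes are broken, aligned along protein axes, zipped together by the synaptonemal complex and recombined. Embryonic stem cells do neither, and DNA methylation and a variant Polycomb repressive complex 1 (PRC1.6) are known repressors of many of these genes. Not all of the listed genes were silent in the cells used here, since 27 had a mean of at least 1 CPM in Mock. Neither DNA methylation nor binding of PRC1.6 was measured in these cells. The DNA-binding partners of PRC1.6 include MGA with MAX and E2F6 with TFDP1. MGA with MAX binds the E-box CACGTG, and E2F factors bind sites such as GGCGGGA.

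Promoter sequences are shown first, since 2 of the best known regulators of such genes bind these motifs. A window from 250 bases before to 50 bases after the start of transcription was available from RefSeq (build GRCm38.p6, the build called mm10) for 43 of the 50 members, and both strands were searched. CACGTG, which reads the same on both strands, stood in a window of 16 of 43 members (37.2%), against 8.09% of all 27025 genes with a window, 11.2% of the 12294 tested genes with one and 11% of the genes called higher in Auxin than in Mock (adjusted p under 0.05, as described further on). GGCGGGA or its reverse complement stood in 9 of 43 members (20.9%), against 12.7% of all genes and 22.6% of tested genes. An E-box and this motif can share at most 1 base. Both were present in 14% of members, 1.39% of all genes and 2.59% of tested genes, and in 3 of 32 members called higher (9.38%) and 3 of the other 11 (27.3%). The E-box was found in 7 of 13 piRNA genes (53.8%), 6 of 11 synaptonemal and axis genes (54.5%) and 3 of 6 testis genes, and in 0 of 6 recombination and 0 of 7 fate genes with a window. By call, it stood in 13 of 32 members called higher (40.6%) and 3 of the other 11 (27.3%). The related lists given further on had it too. It stood in 3 of 9 other piRNA genes (33.3%), 3 of 19 other meiosis genes (15.8%) and 4 of 18 repressors (22.2%). In 13 of the 16 members with an E-box, the one nearest to the start lay within 100 bases of it. The median ratio of observed to expected CpG was 0.738 in members, 0.757 in tested genes and 0.415 in all genes. A match describes the letters of the window, and no binding was measured here.

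**Figure D1:**
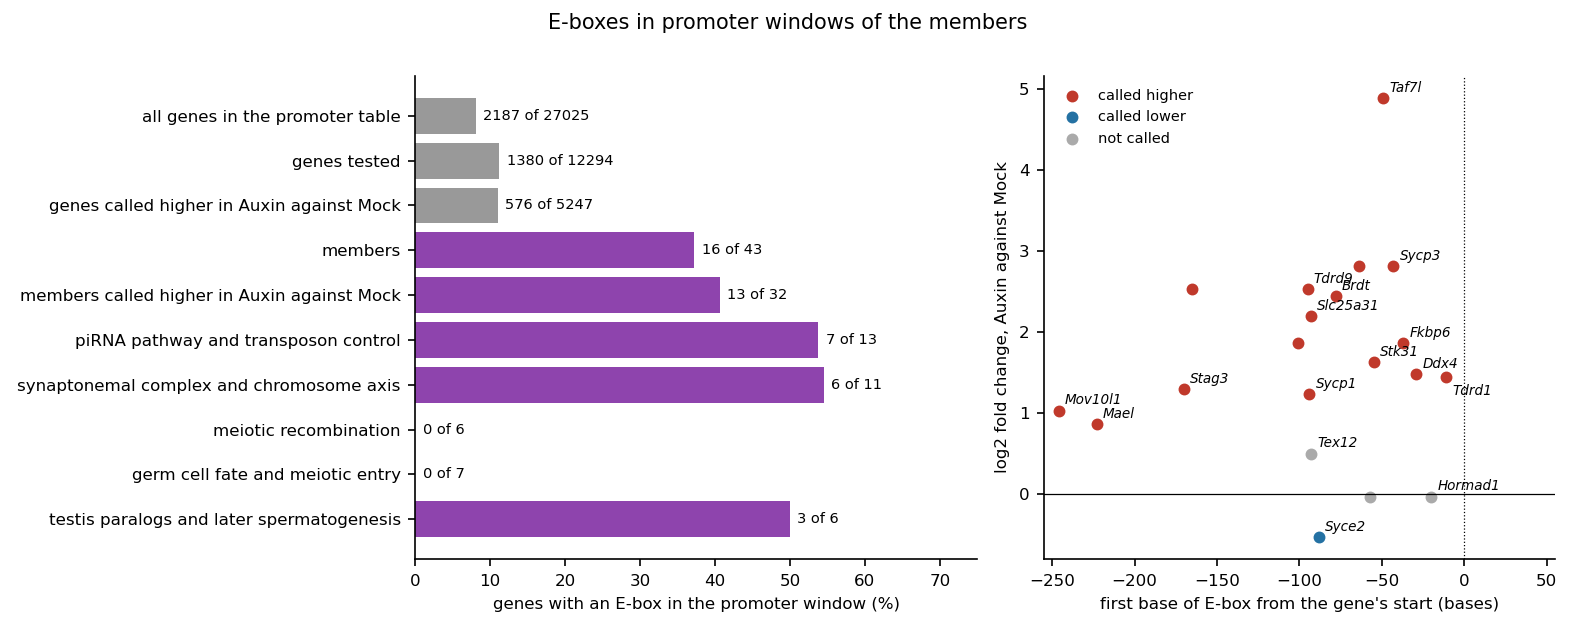
Left, percentage of genes with an E-box in the promoter window, with counts beside the bars, for all genes (grey) and the members (purple). Right, distance of the first base of each E-box from the gene's start (x axis, bases) against the log2 fold change in Auxin against Mock (y axis), with gene names at the E-box nearest to the start. Of the 32 members called higher that have a window, 13 had an E-box. Of the other 11 with a window, 3 had one: Tex12, Hormad1 and Syce2.

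The stretches below hold the E-box in capitals, written 5′ to 3′ on the gene's strand, and all lie upstream of the RefSeq start. The first 6 belong to members that were called higher in Auxin: Taf7l (chrX:134476507-134476566, minus strand), Sycp3 (chr10:88459517-88459576, plus strand), Brdt (chr5:107331089-107331148, plus strand), Slc25a31 (chr3:40708751-40708810, plus strand), Fkbp6 (chr5:135350049-135350108, minus strand) and Ddx4 (chr13:112652311-112652370, minus strand). The last 2 belong to members with the same motif that were not called in Auxin under TMM scaling: Hormad1 (chr3:95559617-95559676, plus strand) and Tex12 (chr9:50561329-50561388, minus strand). The E-box nearest to the start began at -49 in Taf7l, -43 in Sycp3, -37 in Fkbp6 and -20 in Hormad1, counted in bases from the start. Sycp3 and Hormad1 each show a pair of E-boxes.
Taf7l: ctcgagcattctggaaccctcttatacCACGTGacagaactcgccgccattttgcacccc
Sycp3: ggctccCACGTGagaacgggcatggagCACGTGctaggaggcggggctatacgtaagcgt
Brdt: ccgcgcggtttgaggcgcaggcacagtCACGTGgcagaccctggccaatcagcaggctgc
Slc25a31: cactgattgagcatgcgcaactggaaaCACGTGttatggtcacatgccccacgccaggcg
Fkbp6: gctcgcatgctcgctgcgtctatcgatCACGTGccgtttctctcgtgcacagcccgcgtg
Ddx4: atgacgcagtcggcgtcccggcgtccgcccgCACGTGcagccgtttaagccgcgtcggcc
Hormad1: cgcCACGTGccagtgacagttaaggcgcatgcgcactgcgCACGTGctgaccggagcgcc
Tex12: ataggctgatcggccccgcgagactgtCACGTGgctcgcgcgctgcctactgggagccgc

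Library totals ran from 44341283 to 113931419 counts, where both mates of a pair are counted. The sum of the embryonic stem cell markers differed by group. Mock libraries held 5253 to 5348 CPM, Auxin libraries 6671 to 7129 CPM and Re-introduction libraries 5159 to 5278 CPM. Against Mock, 6 of these 8 markers had a higher call in Auxin. The other 2, Pou5f1 and Utf1, had a lower one, with log2 fold changes of -0.53 and -1.03. Of the 7 primitive endoderm markers, 7 were called higher in Auxin than in Mock, with a summed level of 6 to 7.47 CPM in Mock, 22.7 to 23.6 CPM in Auxin and 14.2 to 16 CPM in Re-introduction, and the part of such cells in the values below was not tested. In bulk RNA a change in the number of cells that express a gene and a change in RNA per cell cannot be told apart. Other marker sums also moved. The 2-cell-stage markers lay at 0.447 to 1.13 CPM in Mock, 0.0525 to 0.0732 CPM in Auxin and 0.0446 to 0.123 CPM in Re-introduction, and 1 of 7 could be tested. The fibroblast markers lay at 21.9 to 24.6 CPM in Mock, 44.2 to 53.5 CPM in Auxin and 41 to 42.3 CPM in Re-introduction, with 2 of 4 tested markers called higher in Auxin and 1 lower. Thy1 gave most of that sum, with means of 17.9, 41.2 and 37.5 CPM. The marker called lower was Col1a1, with means of 0.418 CPM in Mock and 0.152 CPM in Auxin. The trophoblast markers were at 44.7 to 47.8 CPM in Mock, 49 to 51.1 CPM in Auxin and 92.2 to 94.5 CPM in Re-introduction. Eomes was the highest of them, with means of 35.4, 25.6 and 66.9 CPM. Of the 4 tested, 2 were called higher in Re-introduction than in Auxin. In Auxin against Mock 2 were called higher and 2 lower, Eomes and Cdx2. Cdx2 had means of 1.7, 0.0825 and 0.783 CPM and was also called lower in Re-introduction than in Mock, where 3 were called higher. The part of these cell types in the members' values was not tested either. The testis somatic markers summed to between 14.4 and 20.4 CPM, of which Star gave most and Hsd3b1 was at 0 in all libraries. Values changed with exon length by -0.18 to -0.13 log2 units per doubling in Mock, by 0.03 to 0.12 in Auxin and by 0.06 in Re-introduction. Of the tested members, 26 of 47 had their lowest Auxin value in Auxin replicate 2. Directions are relative to TMM scaling. With scaling by total counts the median over all genes went from 0.05 to 0.26 log2 units in Auxin against Mock, from 0.00 to -0.08 in Re-introduction against Auxin and from 0.03 to 0.16 in Re-introduction against Mock.

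The first comparison asks what changed after 96 h in auxin, when Suz12 is meant to be depleted. Most of these genes had more RNA in Auxin than in Mock. Of the 50 members, 47 had enough counts to be tested (edgeR quasi-likelihood test over 20838 genes, called at a Benjamini-Hochberg adjusted p under 0.05). In Auxin against Mock 35 members were called higher (74.5%), where 38.4% of all tested genes were, and 4 were called lower, where 34.8% of all tested genes were. The remaining 8 were not called. A value in parentheses after a gene's name is its log2 fold change in the comparison named. The median log2 fold change was 1.14 over the tested members and 0.05 over all tested genes. With the length trend of each library removed, 37 members were called higher and 5 lower, where 40.7% and 32.7% of all tested genes were. The median was then 1.06 over the tested members and 0.12 over all tested genes. The filter could have favoured members that only Auxin lifts over it. On the Mock libraries alone, 43 of the 47 passed, of which 34 were called higher and 4 lower. The 4 that did not pass were Tdrd6, Piwil4, Asz1 and Tex101, and of these Asz1 was called higher. The share called among all genes that pass on Mock alone was not calculated.

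The largest rises were those of Taf7l, Sycp2, Smc1b, Sycp3 and Tdrd7, and the largest falls those of Dnd1 and Nanos3. Together the 50 members took 498 to 528 CPM in Mock, 786 to 818 CPM in Auxin and 723 to 765 CPM in Re-introduction. The mean was at least 1 CPM for 27 members in Mock, 39 in Auxin and 35 in Re-introduction. Per kilobase of exon, the highest Mock levels were those of Rpl10l (148 CPM per kb), Tex19.1 (54.2), Syce2 (25.6), Syce1 (9.09) and Stag3 (7.77). The level of Rpl10l is uncertain, since its reads may be confused with those of the near-identical gene Rpl10. The means of Rpl10l, 151, 125 and 112 CPM (Mock, Auxin, Re-introduction), are part of the sums above. The 3 untested members, Spo11, Meiob and Mei1, held between 0 and 12 counts in any library.

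The other comparisons ask how far the RNA had moved 4.5 h after auxin was removed. Most members that were called between Re-introduction and Auxin had come down, and most were still above Mock. In Re-introduction against Auxin 22 of the 47 tested members were called lower, where 25.5% of all tested genes were, and 5 were called higher, where 25.5% of all tested genes were as well. The remaining 20 were not called, and the median log2 fold change was -0.33 (all genes 0.00). The 5 called higher were Tex15, Dnd1, Nanos3, Dazl and Tex19.1. Against Mock, Re-introduction had 33 members called higher, where 34.7% of all genes were, and 6 called lower, where 33.4% were, with a median of 1.03 (all genes 0.03). The 6 were Dnd1, Prdm1, Nanos3, Syce2, Rpl10l and Zcwpw1. These comparisons share libraries with Auxin against Mock, so their values are set side by side and not counted against each other. Without Re-introduction replicate 1 the median against Mock was 0.74.

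**Figure D2:**
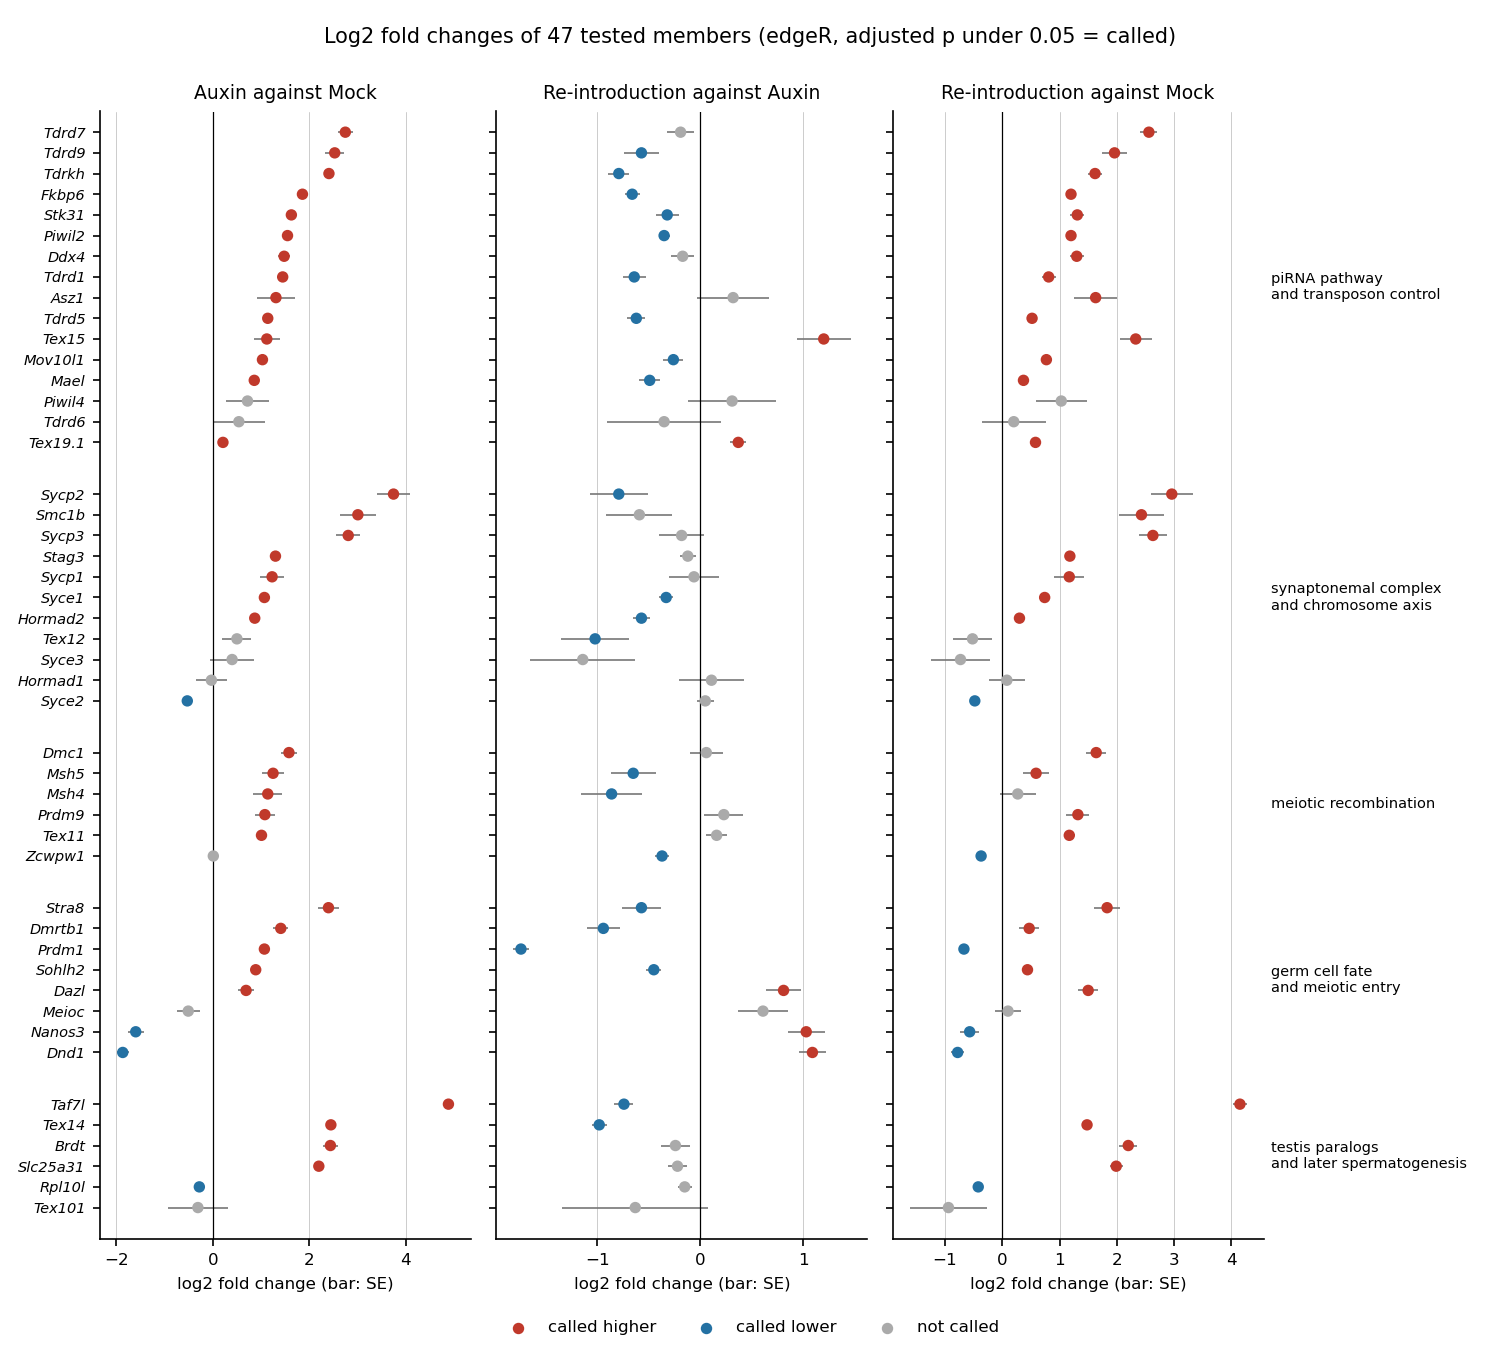
Log2 fold change (x axis; bars are the standard error) of the 47 tested members in the 3 comparisons, grouped by role and ordered within a role by Auxin against Mock. Red points were called higher, blue lower, and grey not called. Most points lie to the right of 0 in Auxin against Mock, from Dnd1 at -1.87 to Taf7l at 4.89.

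All 16 genes of the piRNA pathway and transposon control were tested in Auxin against Mock. Of these, 14 were called higher (87.5%, against 38.4% of all tested genes). The median over those tested was 1.38 on the log2 scale. Tex19.1, a mammal-specific gene that restrains transposons in germ cells and placenta, had 107, 97.7 and 99.7 CPM in Mock, 110.2, 134 and 109 CPM in Auxin and 151, 149.5 and 155 CPM in Re-introduction. It was the highest of these genes per kilobase in every group and rose least of those called (log2 fold change 0.21, SE 0.078, adjusted p = 0.0284). That small rise was lost without Auxin replicate 2 (0.10), Mock replicate 2 (0.17) or Mock replicate 3 (0.19). It was also lost with DESeq2 (0.18), and was larger with total counts (0.42) and with the length trend removed (0.47). Stk31, a Tudor-domain kinase of testis, was at 20.2, 19.8 and 20 CPM in Mock, 69.5, 47.9 and 68.7 CPM in Auxin and 49.4, 51 and 48.7 CPM in Re-introduction. Ddx4, the germ cell RNA helicase also called Vasa, was at 12.8, 14.8 and 14.9 CPM in Mock, 42.5, 31.2 and 44.2 CPM in Auxin and 34.7, 34.8 and 35.1 CPM in Re-introduction. In both genes Auxin replicate 2 was the lowest Auxin library and still stood above all 3 Mock libraries. The log2 fold changes were 1.63 (SE 0.12, adjusted p = 2.32e-07) for Stk31 and 1.48 (SE 0.12, adjusted p = 5.05e-07) for Ddx4.

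Fkbp6, a co-chaperone needed in piRNA production, was at 7.65, 6.37 and 7.16 CPM in Mock, 24.2, 27.1 and 25.8 CPM in Auxin and 16.7, 15.9 and 16.1 CPM in Re-introduction. Piwil2, a PIWI protein that carries piRNAs, was at 8.93, 9.6 and 9.11 CPM in Mock, 26.4, 27.8 and 26.5 CPM in Auxin and 21.1, 21.1 and 21.1 CPM in Re-introduction. The groups did not overlap for either gene in any comparison, and Re-introduction stood between the other two. Fkbp6 rose 3.63-fold (adjusted p = 3.33e-09) and Piwil2 2.92-fold (adjusted p = 1.25e-09). Tdrd7, a Tudor protein of germ granules (ENSMUSG00000035517.17, mm10 chromosome 4, 45965334 to 46034761, plus strand), had 0.932, 0.676 and 0.63 CPM in Mock, 5.27, 4.89 and 5.17 CPM in Auxin and 5.01, 4.17 and 4.24 CPM in Re-introduction. Tdrkh, a Tudor protein that holds PIWI proteins at mitochondria, had 1.42, 1.22 and 1.51 CPM in Mock, 7.56, 7.24 and 7.23 CPM in Auxin and 4.39, 4.63 and 3.74 CPM in Re-introduction. Tdrd9, a helicase with a Tudor domain, had 0.233, 0.278 and 0.224 CPM in Mock, 1.57, 1.15 and 1.55 CPM in Auxin and 1.03, 0.891 and 0.944 CPM in Re-introduction. These 3 Tudor genes were low in Mock and rose most in this role, by 2.75 (SE 0.15), 2.41 (SE 0.11) and 2.53 (SE 0.2) log2 units. Tdrkh shares exon sequence with Oaz3, and the counting used no strand. The other Tudor genes Tdrd1 and Tdrd5 rose by 1.45 and 1.14, the helicase Mov10l1 by 1.03, the nuage protein Mael by 0.86 and the granule scaffold Asz1 by 1.31. Tdrd6 and Piwil4 were not called, at 0.54 and 0.72, and neither exceeded 0.577 CPM in any library. Piwil4 was called higher in Auxin without Mock replicate 1 (1.28). Tdrd5 and Piwil4 share exon sequence with 4930518J20Rik and Gm10706.

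After washout this role moved in both directions. In Re-introduction against Auxin 9 of the 16 were called lower (56.2%, against 25.5% of all tested genes). Among them were Tdrkh (-0.79), Fkbp6 (-0.66), Tdrd1 (-0.64), Tdrd5 (-0.62) and Piwil2 (-0.35). Tex15, which acts in PIWI-guided silencing, was called higher. Its values were 6.17, 8.16 and 7.57 CPM in Mock, 16.8, 11 and 19.9 CPM in Auxin and 52.8, 31.5 and 25.3 CPM in Re-introduction, so that each Re-introduction library was above each Auxin library, and replicate 1 was the highest (log2 fold change 1.20, SE 0.26, adjusted p = 0.00287). Tex19.1 was also called higher (0.37). The lower call of Stk31 (-0.32) is of a gene whose groups overlapped. It was -0.51 with length and GC trends removed, -0.49 without Auxin replicate 2, and was lost without Auxin replicate 1 (-0.24), Auxin replicate 3 (-0.24) or any 1 Re-introduction library (-0.34 to -0.32) and in a fit of the 2 groups alone (-0.33). Tdrd9 (-0.57) lost its call without Auxin replicate 1 (-0.50) or 3 (-0.51), or without Re-introduction replicate 2 (-0.53) or 3 (-0.57). Mov10l1 (-0.26) lost its call with DESeq2 (-0.25), with no filter (-0.25) and with the length trend removed (-0.23) or length and GC trends removed (-0.17). Of the libraries left out, it kept the call without Auxin replicate 1 only, and its values without the other Auxin or Re-introduction libraries ran from -0.30 to -0.21. Ddx4 (-0.17) was not called, but a lower call appeared with length and GC trends removed (-0.25) or with Auxin replicate 2 left out (-0.33). Against Mock, 14 of the 16 were still called higher in Re-introduction (87.5%, against 34.7% of all tested genes), with a median of 1.20. Tdrd5 lost that call with the length trend removed (0.52 against 0.23), and Piwil4 gained it without Mock replicate 1 (1.58) or Re-introduction replicate 3 (1.34), and also with total counts (1.16), with no filter (1.03), with DESeq2 (1.03), in a fit of the 2 groups alone (1.03) and with a replicate block (1.06).

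Of the 11 genes of the synaptonemal complex and chromosome axis, 7 were called higher (63.6%) and 1 lower (9.09%) in Auxin against Mock. Of all tested genes, 38.4% were called higher and 34.8% lower. The median log2 fold change of the 11 genes was 1.07. The axis gene Sycp2 (ENSMUSG00000060445.11, mm10 chromosome 2, 178345293 to 178407685, minus strand) was at 0.175, 0.181 and 0.21 CPM in Mock, 2.72, 1.72 and 3.18 CPM in Auxin and 2, 1.49 and 0.907 CPM in Re-introduction. Its partner Sycp3 was at 0.961, 0.748 and 0.797 CPM in Mock, 6.52, 3.61 and 7.6 CPM in Auxin and 5.09, 4.81 and 5.72 CPM in Re-introduction, and shares exon sequence with Chpt1. Smc1b, the meiotic form of a cohesin subunit, was at 0.194, 0.29 and 0.364 CPM in Mock, 2.37, 1.39 and 2.97 CPM in Auxin and 1.96, 1.65 and 0.895 CPM in Re-introduction. All 3 were under 1 CPM in each Mock library and at 1.39 CPM or more in each Auxin library, and Auxin replicate 2 was the lowest of its group for all 3. Sycp2 rose by 3.75 (SE 0.35, adjusted p = 2.11e-06), Smc1b by 3.01 (SE 0.38, adjusted p = 2.45e-05) and Sycp3 by 2.81 (SE 0.25, adjusted p = 1.39e-06) log2 units.

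Stag3, another meiotic cohesin subunit, was already well above 1 CPM in Mock, with 42.8, 44.6 and 46.3 CPM in Mock, 119, 94.8 and 115 CPM in Auxin and 105, 97.7 and 99.6 CPM in Re-introduction. Syce1, of the central element, was at 14.3, 13.3 and 12.3 CPM in Mock, 28.4, 29.1 and 26.1 CPM in Auxin and 22.6, 21.7 and 22 CPM in Re-introduction. Hormad2, which marks unsynapsed axes, was at 5.59, 5.9 and 5.71 CPM in Mock, 10.6, 9.58 and 11.2 CPM in Auxin and 7.43, 6.46 and 7.21 CPM in Re-introduction. Each rose without overlap of the Mock and Auxin libraries, by 1.30, 1.07 and 0.87 log2 units. The transverse filament gene Sycp1 rose by 1.23. Syce2, also of the central element, went the other way, with 53.6, 46.7 and 50.5 CPM in Mock, 32.3, 39.2 and 33 CPM in Auxin and 37.1, 34.7 and 36.1 CPM in Re-introduction. Every Mock library of Syce2 stood above every library of the other groups (log2 fold change -0.53, SE 0.08, adjusted p = 1.01e-04). The fall of Syce2 was -0.29 with the length trend removed and -0.32 with total counts. Tex12 (0.50), Syce3 (0.40) and Hormad1 (-0.03) were not called, and lay under 1 CPM in all libraries. Tex12 was called higher in Auxin with the length trend removed (0.99), with length and GC trends removed (0.85) and with total counts (0.71). In Re-introduction against Auxin 4 of the 11 were called lower (36.4%, against 25.5% of all tested genes): Sycp2 (-0.79), Hormad2 (-0.57), Syce1 (-0.33) and Tex12 (-1.02). The call of Sycp2 was lost without Auxin replicate 1 (-0.75) or 3 (-0.60), or without Re-introduction replicate 2 (-0.80) or 3 (-0.53), and in a fit of the 2 groups alone (-0.81). That of Tex12 was lost without Auxin replicate 1 or 2, or without Re-introduction replicate 1 or 3 (-1.04 to -0.85). Without Auxin replicate 2, Smc1b (-0.85), Sycp3 (-0.45) and Stag3 (-0.23) were called lower as well, and Syce3 (-1.85) was so without Re-introduction replicate 2 and with halved counts (-1.25). With length and GC trends removed, Sycp3 (-0.74), Smc1b (-0.77) and Sycp1 (-0.55) were called lower, against -0.18, -0.59 and -0.06 without that step, and Tex12 was at -1.70. Re-introduction against Mock called 7 higher and 1 lower (median 0.74), or 63.6% and 9.09%, where 34.7% and 33.4% of all tested genes were called. Hormad2 was among the 7 (0.30) and lost that call without Re-introduction replicate 1 (0.24), and Syce3 was called lower without Re-introduction replicate 2 (-1.45).

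Of the 9 genes of meiotic recombination, 6 were tested. In Auxin against Mock 5 of these were called higher (83.3%, against 38.4% of all tested genes). The median of the 6 was 1.11 on the log2 scale. Tex11, an X-linked gene that regulates crossing over, was at 5.34, 5.24 and 4.95 CPM in Mock, 10.6, 8.96 and 11.7 CPM in Auxin and 12.5, 10.7 and 11.7 CPM in Re-introduction. Dmc1, the meiotic recombinase (ENSMUSG00000022429.10, mm10 chromosome 15, 79561500 to 79605084, minus strand), was at 0.864, 0.676 and 0.741 CPM in Mock, 2.48, 1.84 and 2.57 CPM in Auxin and 2.62, 2.43 and 2.11 CPM in Re-introduction. Prdm9, the methyltransferase that places recombination hotspots, was at 1.17, 0.966 and 0.811 CPM in Mock, 1.98, 1.77 and 2.59 CPM in Auxin and 2.5, 2.94 and 2.06 CPM in Re-introduction. In all 3 the Auxin and Re-introduction libraries lay above every Mock library and overlapped each other. Their log2 fold changes in Auxin were 1.01 (SE 0.1), 1.58 (SE 0.17) and 1.08 (SE 0.2). Msh5, which with Msh4 stabilizes crossover intermediates, was at 0.359, 0.507 and 0.504 CPM in Mock, 1.18, 0.892 and 1.15 CPM in Auxin and 0.816, 0.668 and 0.564 CPM in Re-introduction. Msh5 rose by 1.25 (SE 0.22) and Msh4 by 1.14 (SE 0.3), and Msh4 shares exon sequence with Gm24395.

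Zcwpw1, a reader of the marks that Prdm9 makes, behaved otherwise, with 10.4, 10.7 and 9.82 CPM in Mock, 10, 10.8 and 10.2 CPM in Auxin and 8.21, 7.89 and 7.88 CPM in Re-introduction. Its Mock and Auxin libraries overlapped (log2 fold change 0.01, SE 0.065, adjusted p = 0.944), and all Re-introduction libraries lay below them (-0.37 against Auxin, adjusted p = 7.92e-04). The direction in Auxin against Mock depended on the scaling: Zcwpw1 was called higher with total counts (0.22), and lower with the length trend removed (-0.22) or length and GC trends removed (-0.33). It shares exon sequence with Pilra. Msh5 (-0.65) and Msh4 (-0.86) were the other recombination genes called lower after washout. Both calls were lost without Auxin replicate 1 (-0.59 and -0.92), Auxin replicate 3 (-0.60 and -0.73) or Re-introduction replicate 2 (-0.64 and -0.71). That of Msh5 was also lost without Re-introduction replicate 3 (-0.53) or with trends of length and GC taken out (-0.51), and that of Msh4 without Re-introduction replicate 1 (-0.75). Against Mock, 4 of the 6 were called higher in Re-introduction (66.7%, against 34.7% of all tested genes) and Zcwpw1 lower (-0.37). The higher call of Msh5 (0.59) was lost with DESeq2 (0.57), with no filter (0.60) and with the length trend removed (0.42). Of the libraries left out, it held without Re-introduction replicate 3 only, and its values without any other Mock or Re-introduction library ran from 0.41 to 0.66. Of the untested genes, Mei1 had 12, 10 and 8 counts in Mock and at most 3 in any other library. Spo11, which makes the meiotic breaks, had at most 5 counts, and Meiob at most 7.

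Of the 8 genes of germ cell fate and meiotic entry, 5 were called higher in Auxin against Mock (62.5%, against 38.4% of all tested genes). Dnd1 and Nanos3 were called lower (25%, against 34.8% of all tested genes), and Meioc was not called (-0.51). The median log2 fold change was 0.79. Stra8, the retinoic acid target that opens meiosis, was at 0.359, 0.217 and 0.21 CPM in Mock, 1.34, 1.55 and 1.39 CPM in Auxin and 1.03, 0.824 and 0.993 CPM in Re-introduction. Sohlh2, a transcription factor of spermatogonia and oocytes, was at 10.6, 10.3 and 9.6 CPM in Mock, 17.7, 20.1 and 18.8 CPM in Auxin and 13.7, 14.6 and 13.1 CPM in Re-introduction. Dazl, an RNA-binding protein that licenses germ cells, was at 2.63, 2.82 and 2.78 CPM in Mock, 4.32, 3.27 and 5.75 CPM in Auxin and 8.72, 7.48 and 7.08 CPM in Re-introduction. The Auxin libraries of all 3 lay above Mock, by 2.40 (SE 0.22), 0.89 (SE 0.072) and 0.69 (SE 0.17) log2 units, and Dmrtb1 rose by 1.41. Dazl went further up after washout (log2 fold change 0.81, SE 0.17, adjusted p = 0.00204). That rise was 0.44 with length and GC trends removed.

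Prdm1, the repressor also called Blimp1 that specifies primordial germ cells (ENSMUSG00000038151.12, mm10 chromosome 10, 44437177 to 44528501, minus strand), had 10.8, 11.2 and 10.3 CPM in Mock, 24.5, 21.1 and 22.4 CPM in Auxin and 7.03, 6.84 and 6.43 CPM in Re-introduction. It rose in Auxin (log2 fold change 1.07, SE 0.072, adjusted p = 1.30e-07), and after washout fell below both other groups with no overlap (-1.74 against Auxin, adjusted p = 2.01e-08, and -0.67 against Mock, adjusted p = 1.35e-05). Dnd1, an RNA-binding protein that keeps primordial germ cells alive, had 8.93, 7.73 and 7.97 CPM in Mock, 2.02, 2.26 and 2.47 CPM in Auxin and 5.01, 5.37 and 4.07 CPM in Re-introduction. Nanos3, which also protects these cells, had 2.49, 2.08 and 2.46 CPM in Mock, 0.573, 0.905 and 0.847 CPM in Auxin and 1.52, 1.65 and 1.59 CPM in Re-introduction. In both Dnd1 and Nanos3 all Auxin libraries were lowest, all Mock libraries highest, and Re-introduction lay between. Dnd1 fell by 1.87 log2 units in Auxin (SE 0.12, adjusted p = 1.03e-07) and rose by 1.09 after washout (SE 0.13, adjusted p = 3.07e-05). Nanos3 fell by 1.60 (SE 0.17, adjusted p = 6.10e-06) and rose by 1.03 (SE 0.18, adjusted p = 5.96e-04). Dnd1 shares exon sequence with Wdr55. In Re-introduction against Mock, 4 of the 8 were called higher (50%) and 3 lower (37.5%), where 34.7% and 33.4% of all tested genes were. Nanos3 was among the 3 (-0.57), and lost that call with the length trend removed (-0.20) and with length and GC trends removed (-0.05).

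In Re-introduction against Auxin, Stra8 (-0.57), Sohlh2 (-0.45), Dmrtb1 (-0.94) and Prdm1 were called lower. The call of Stra8 was lost without Auxin replicate 2 (-0.52) or 3 (-0.59), or without Re-introduction replicate 2 (-0.49) or 3 (-0.61). Dmrtb1, a transcription factor of the switch from mitosis to meiosis, was called higher in Re-introduction than in Mock (0.47). That call was lost without Mock replicate 1 (0.43), Mock replicate 3 (0.38) or Re-introduction replicate 1 (0.32) and with DESeq2 (0.45), and was 0.82 with length and GC trends removed. The calls of Meioc depended on the setting. Meioc was called lower in Auxin against Mock with DESeq2 (-0.55), with no filter (-0.52), with the length trend removed (-0.63) and with length and GC trends removed (-0.80). In Re-introduction against Auxin it was called higher with DESeq2 (0.63), with DESeq2's size factors (0.62), with no filter (0.62) and with the length trend removed (0.64). Without Auxin replicate 3, Meioc was called lower in Auxin against Mock (-0.72) and higher in Re-introduction against Auxin (0.82).

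The testis paralogs and genes of later spermatogenesis had the largest median of the 5 roles in Auxin against Mock, 2.32. Of these 6 genes, 4 were called higher (66.7%) and 1 lower (16.7%), where 38.4% and 34.8% of all tested genes were. Taf7l, a testis paralog of a general transcription factor subunit (ENSMUSG00000009596.9, mm10 chromosome X, 134460118 to 134476490, minus strand), had 0.534, 0.785 and 0.657 CPM in Mock, 19.8, 18.4 and 20.1 CPM in Auxin and 11.3, 12.6 and 11 CPM in Re-introduction. Every Mock library was under 1 CPM and every Auxin library at 18.4 CPM or more, a rise of 29.7-fold (log2 fold change 4.89, SE 0.12, adjusted p = 1.42e-10). After washout its libraries lay between those groups (log2 fold change -0.74, SE 0.092, adjusted p = 5.40e-05), 17.8-fold above Mock. Tex14, which keeps the bridges between germ cells open, had 7.25, 7.5 and 6.9 CPM in Mock, 41.1, 35.5 and 41.8 CPM in Auxin and 20.4, 18.8 and 20.9 CPM in Re-introduction. It rose 5.47-fold (adjusted p = 6.38e-10) and had the largest fall of this role after washout (log2 fold change -0.98, SE 0.075, adjusted p = 1.44e-06).

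Slc25a31, a mitochondrial ADP/ATP carrier of germ cells, had 1.75, 1.87 and 1.47 CPM in Mock, 7.84, 7.66 and 8.03 CPM in Auxin and 6.17, 7.33 and 6.8 CPM in Re-introduction. Brdt, the bromodomain protein of testis, had 0.767, 0.616 and 0.713 CPM in Mock, 4.26, 3.07 and 4.13 CPM in Auxin and 3.54, 3.03 and 3.1 CPM in Re-introduction. Both rose in Auxin, by 2.20 (SE 0.11) and 2.44 (SE 0.16), and were not called after washout, at -0.22 (adjusted p = 0.0826) and -0.24 (adjusted p = 0.179). Without Auxin replicate 2, Brdt was called lower after washout (-0.39). Slc25a31 was called lower after washout with total counts (-0.30), a filter of 1 CPM (-0.27), halved counts (-0.25) and length and GC trends removed (-0.40). Rpl10l, a copy of the ribosomal protein gene Rpl10 that replaces it in male meiosis, had 160.4, 145 and 147 CPM in Mock, 118, 138 and 118 CPM in Auxin and 113, 113 and 111 CPM in Re-introduction. Its call in Auxin (log2 fold change -0.28, SE 0.068, adjusted p = 0.00343) turned to 0.12 with the length trend removed and was lost with total counts (-0.07). Its call against Mock after washout (-0.42) was lost with the length trend removed (-0.07), and its reads cannot be told apart with certainty from those of near-identical Rpl10. Without Auxin replicate 1 it was called lower after washout (-0.20), as it was with total counts (-0.23), a filter of 1 CPM (-0.20), halved counts (-0.18), the length trend removed (-0.20) and length and GC trends removed (-0.15). Tex101, a sperm surface protein gene, had at most 0.204 CPM in all libraries and was not called in any comparison, though without Re-introduction replicate 3 it was called lower against Auxin (-2.30) and against Mock (-2.62).

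**Figure D3:**
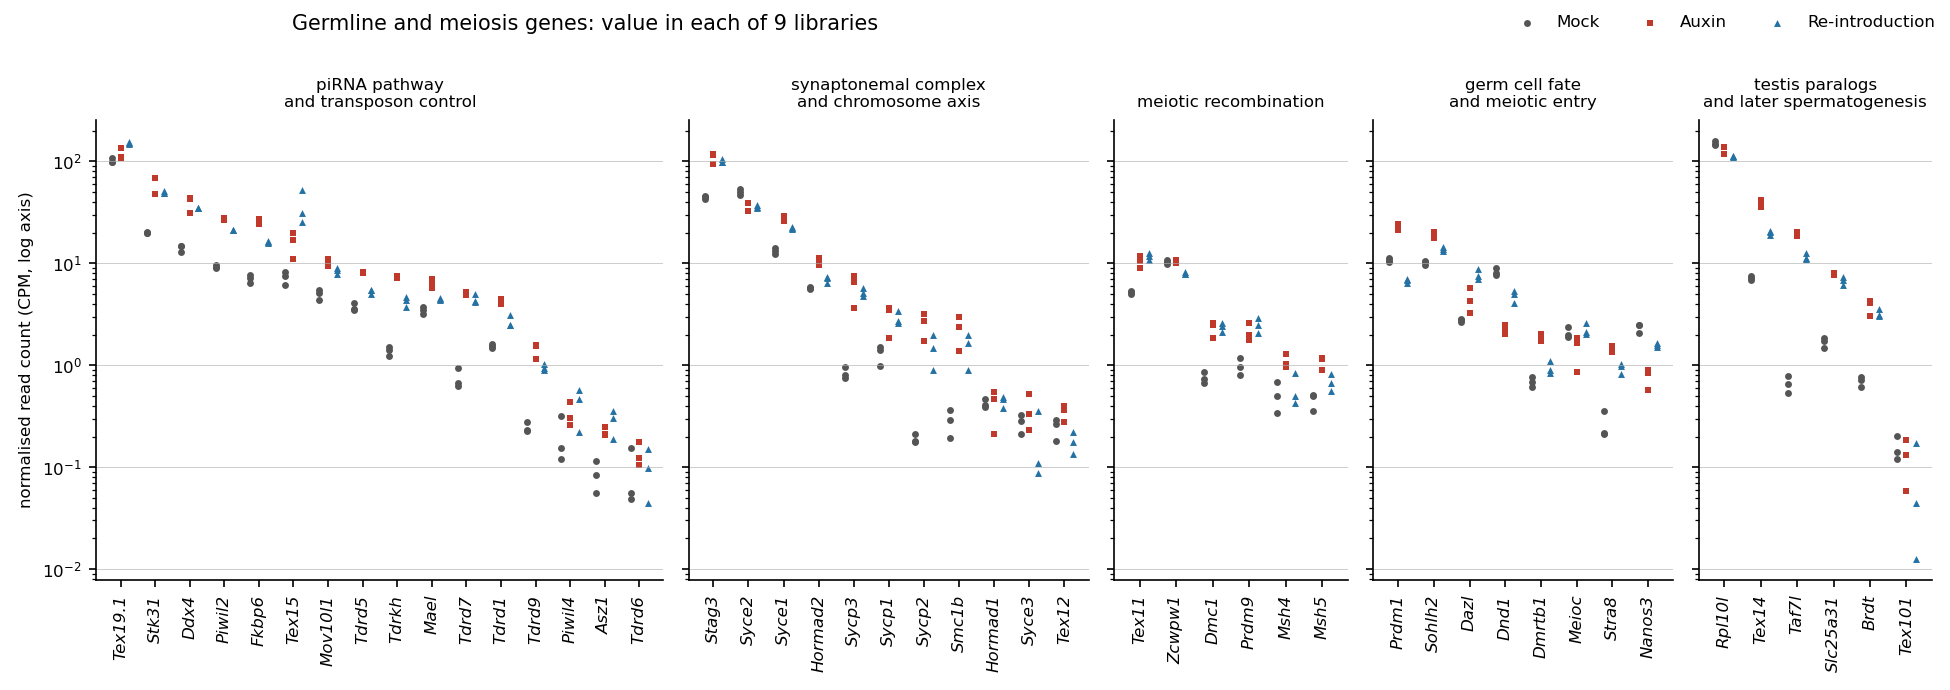
Normalised read count (CPM, log axis) of the 47 tested members in each of 9 libraries, by role and ordered by the Auxin mean. Grey circles are Mock, red squares Auxin and blue triangles Re-introduction. Taf7l, Sycp2, Sycp3 and Smc1b show the widest gaps between Mock and Auxin, while Dnd1, Nanos3 and Syce2 are highest in Mock.

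Related genes outside the list did not all move with it. Of 10 tested other piRNA pathway genes, 3 were called higher (30%) and 6 lower (60%) in Auxin against Mock, where 38.4% and 34.8% of all tested genes were (median -0.41). Of those, Pnldc1, a trimmer of piRNA ends, had 21.5 ± 0.79 CPM (mean ± SD, n = 3) in Mock and 15.4 ± 0.86 CPM in Auxin (-0.48). Rnf17, a Tudor protein, had 17.6 ± 1.38 CPM in Mock and 37.9 ± 11.5 CPM in Auxin (1.10), and Tdrd12, which helps load PIWI proteins, 34.6 ± 0.0683 and 26.7 ± 3.22 CPM (-0.38). Among 24 tested other meiosis genes, 14 were called higher (58.3%) and 6 lower (25%). Their median was 0.40. The highest of these per kilobase were Trip13, a remodeller of HORMA proteins that is also active in mitosis, and M1ap, a meiosis gene of testis. Trip13 was at 114 ± 2.63 CPM in Mock and 64.9 ± 4.93 CPM in Auxin (-0.81), and M1ap, which was not called, at 26.4 ± 1.02 and 24.7 ± 1.57 CPM (-0.09). After washout 10 of the 24 were called lower (41.7%) and 2 higher (8.33%), against 25.5% of all tested genes in each direction.

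Of 8 genes of primordial germ cells, 3 were called higher (37.5%) and 5 lower (62.5%) in Auxin against Mock, where 38.4% and 34.8% of all tested genes were. Dppa5a, an RNA-binding protein of pluripotent and germ cells, fell from 411 ± 27.4 to 184 ± 28.7 CPM, and Ifitm3, a membrane protein of early germ cells, from 35.5 ± 1.38 to 14.6 ± 2.75 CPM. Prdm14, a regulator of both cell types, rose from 34 ± 2.32 to 109 ± 5.82 CPM. Repressors known to act on germline genes gave 4 of 21 called higher (19%) and 14 lower (66.7%) in Auxin, against the same 38.4% and 34.8%, with a median of -0.43. The maintenance methylation factor Uhrf1 fell from 525 ± 9.74 to 132 ± 12 CPM and was at 226 ± 4.14 CPM after washout. Rybp, a subunit of variant PRC1 complexes, rose from 186 ± 11.6 to 313 ± 28.8 CPM, and Rnf2, the catalytic subunit of PRC1, was at 205 ± 2.98 and 215 ± 14.4 CPM (0.07, not called). The DNA-binding partners of PRC1.6 named above went both ways. Mga rose from 194 ± 32 to 399 ± 134 CPM (1.04) and E2f6 from 39.4 ± 0.838 to 55.2 ± 3.58 CPM (0.49), both called. Max fell from 102 ± 0.999 to 61.1 ± 4.9 CPM (-0.74) and Tfdp1 from 227 ± 2.54 to 124 ± 8.07 CPM (-0.87), both called. In Re-introduction against Auxin 13 of the 21 were called higher (61.9%) and 2 lower (9.52%), where 25.5% of all tested genes were in each direction. RNA levels of these regulators moved beside those of the members, and their part in the members' values was not tested.

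**Figure D4:**
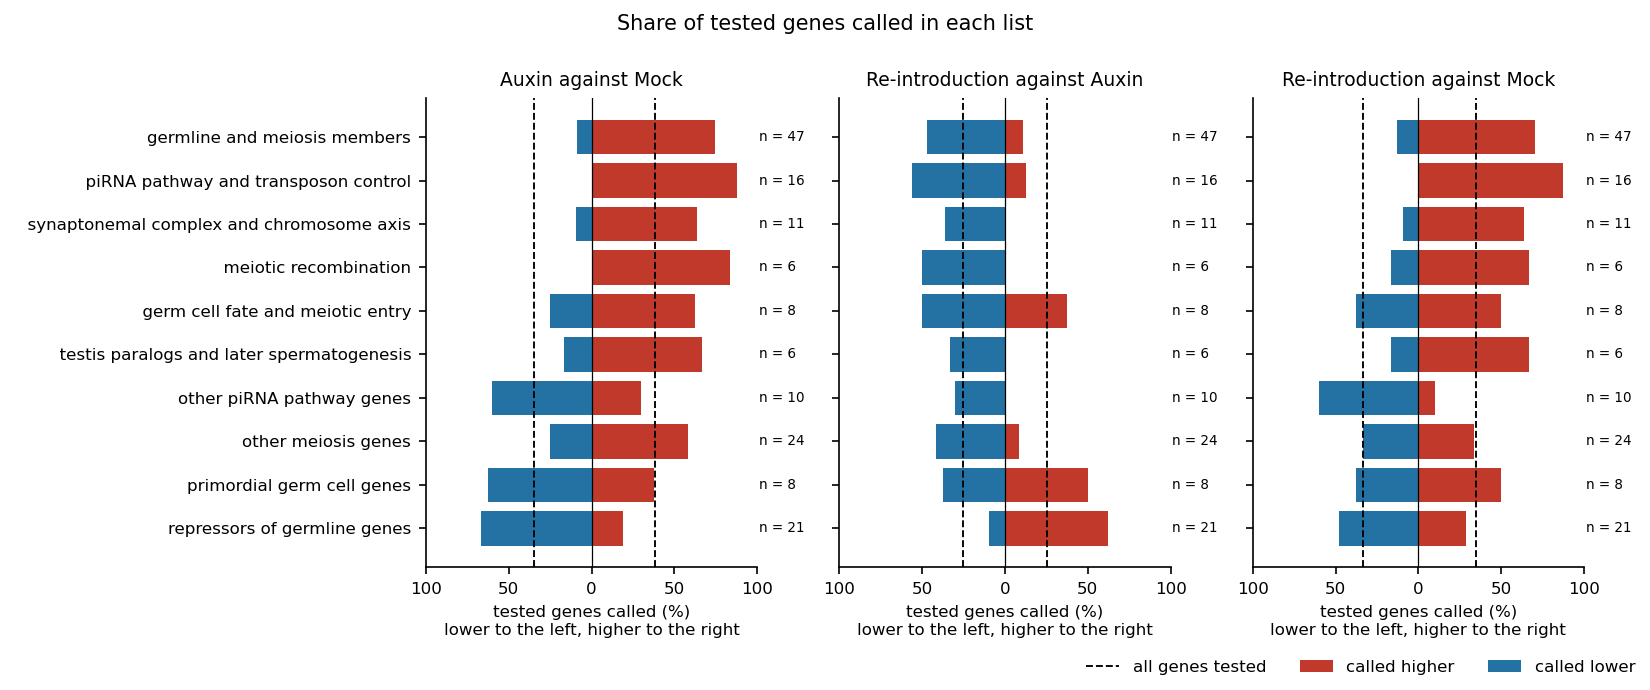
Percentage of tested genes called higher (red, to the right) and lower (blue, to the left) in the members, their 5 roles and 4 related lists, with dashed lines at the percentages over all tested genes. In Auxin against Mock, 74.5% of members were called higher against 38.4% of all genes, and the repressors lie mostly to the left.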

How the data were processed

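Per the file headers, the deposited values are raw counts per gene from featureCounts 2.0.6, over exons of an mm10 annotation, with no strand setting. Pairs were not counted once, so each mate is a count. By that tool's defaults, reads mapped to several places or genes are left out, and 7 members share exon sequence with another gene, so that their counts are uncertain. Per the submitters' processing notes, Trim Galore 0.6.10, FastQC 0.12.1, Bowtie2 2.5.3 and SAMtools 1.20 were also used, with roles not given in the sources used here. Whether reads across exon junctions were aligned is therefore not known, and levels per kilobase are uncertain to that extent. Reads were 75 bp pairs.

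Symbols were matched on unversioned gene identifiers, which named 48058 of 48440 genes. Genes passing filterByExpr (20838) were scaled by TMM and fitted in edgeR 4.0.16 (R 4.3.3, limma 3.58.1) with its quasi-likelihood test, all 9 libraries in 1 fit with group as the only term, two-sided, with Benjamini-Hochberg adjustment over all genes tested. The common biological coefficient of variation was 9.15%. The procedure was tested on simulated data. CPM values use TMM-scaled totals. Alternatives were DESeq2 1.42.0, other scalings and filters, halved counts, length and GC trends removed, a replicate block, and each library left out.

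The members and lists were chosen with earlier results of these data known. Values in every library are given for the 5 members of each role with the highest level per kilobase and for others called with a log2 fold change of at least 2 in size. Of the related lists, the 2 or 3 with the highest level are named, and of the repressors also the DNA-binding partners of PRC1.6. Spata22 was not matched. Promoter sequences are from RefSeq (GRCm38.p6).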

Additional observations from a re-analysis of the deposited data

How the results depend on the processing

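Counts of members called stayed within 1.5 times the report's values under the alternatives, except where a fold change of at least 2 was required. Then 30 members were called higher and 2 lower in Auxin against Mock (edgeR quasi-likelihood test). In Re-introduction against Auxin 3 were called higher and 2 lower. In Re-introduction against Mock 23 were called higher, against 33 without that requirement, and 0 lower, where the lowest member value was -0.94. The share of all genes that meet this requirement was not calculated. With each library left out in turn, Auxin against Mock had 34 to 36 members higher and 4 to 5 lower, Re-introduction against Auxin 5 to 6 higher and 15 to 24 lower, and Re-introduction against Mock 30 to 34 higher and 6 to 7 lower. Of all tested genes, 34.9% to 39.6% were then called higher and 32.7% to 36.3% lower in Auxin against Mock. In Re-introduction against Auxin these shares were 20.7% to 27% and 21.5% to 27.2%. In Re-introduction against Mock they were 29.9% to 31.6% and 30.8% to 32%. The medians of the members were 1.10 to 1.22, -0.39 to -0.26 and 0.74 to 1.14. The median in Auxin against Mock was 1.30 with a filter of 1 CPM and 1.35 with total counts, and in Re-introduction against Mock it was 1.20 and 1.16. Correlations of the deviations of same-numbered libraries ran from -0.698 (Auxin and Mock replicate 1) to 0.704 (Auxin and Mock replicate 3), and not every library correlated best with its own number, so the numbers were not taken to pair the libraries. With a replicate block 34 members were higher and 4 lower in Auxin against Mock, 5 and 19 in Re-introduction against Auxin, and 33 and 6 in Re-introduction against Mock. Of all tested genes, 37.1% and 33.9%, 23.7% and 23.4%, and 33.2% and 32.3% were called in these directions with the block. The calls lost with it were those of Tex19.1 in Auxin against Mock (0.21), Stk31 (-0.31), Msh5 (-0.66) and Mov10l1 (-0.25) in Re-introduction against Auxin, and Msh5 (0.58) in Re-introduction against Mock, where Piwil4 gained a call (1.06). Depth limits the 3 untested members, and Tdrd6, Piwil4, Asz1 and Tex101, which were not at 0.131 CPM in all Mock libraries.

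Signs of single members turned 18 times in Auxin against Mock, 15 times in Re-introduction against Auxin and 11 times in Re-introduction against Mock, over all members and alternatives, and the cause was not tested. Rpl10l in Auxin against Mock was called and turned to 0.15 with length and GC trends removed and 0.12 with length alone, both called, and its called value in Re-introduction against Mock turned to 0.01 with both, not called. Of the other turned values, those of Zcwpw1 in Auxin against Mock with either trend removal and of Meioc in Re-introduction against Mock were called. With length and GC trends removed, turned values were in Auxin against Mock Hormad1 (0.06), Tex101 (0.01) and Zcwpw1 (-0.33), in Re-introduction against Auxin Asz1 (-0.10), Dmc1 (-0.08), Hormad1 (-0.37) and Tex11 (-0.04), and in Re-introduction against Mock Hormad1 (-0.31), Meioc (-0.42) and Msh4 (-0.06). With length alone they were Hormad1 (0.26) and Zcwpw1 (-0.22) in Auxin against Mock, and Msh4 (-0.01) and Tdrd6 (-0.10) in Re-introduction against Mock. With total counts they were Hormad1 (0.18) in Auxin against Mock, and Dmc1 (-0.03) and Syce2 (-0.03) in Re-introduction against Auxin. Other fits turned Hormad1 in Auxin against Mock (2-group fit 0.01, halved counts 0.01) and Zcwpw1 (DESeq2 Wald test -0.03, DESeq2 size factors -0.02). With each library left out in turn, ranges that crossed 0 were those of Hormad1 (-0.32 to 0.28), Tex101 (-0.71 to 0.01) and Zcwpw1 (-0.04 to 0.02) in Auxin against Mock, of Dmc1 (-0.10 to 0.14), Hormad1 (-0.23 to 0.38), Piwil4 (-0.06 to 0.63), Syce2 (-0.02 to 0.13), Sycp1 (-0.33 to 0.11) and Sycp3 (-0.45 to 0.04) in Re-introduction against Auxin, and of Meioc (-0.01 to 0.16), Msh4 (-0.11 to 0.51) and Tdrd6 (-0.25 to 0.96) in Re-introduction against Mock.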

Other observations

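Some meiosis genes outside the 50 rose by amounts within the range of the members. They were chosen after their values were seen, and each was called higher in Auxin against Mock (edgeR quasi-likelihood test, 3 libraries a group). Shoc1, a crossover factor listed in the count table as AI481877, had mean levels of 1.98 ± 0.135, 22 ± 4 and 16 ± 1.55 CPM in the Mock, Auxin and Re-introduction libraries (± SD, n = 3 each), a log2 fold change in Auxin of 3.47 (adjusted p = 3.33e-09). Six6os1, a protein of the central element listed as 4930447C04Rik, had 14.4 ± 1.46, 56.3 ± 14.5 and 56.9 ± 10 CPM (1.97, adjusted p = 2.16e-06). Hfm1, a helicase of crossing over, had 1.01 ± 0.0807, 3.58 ± 1.12 and 2.18 ± 0.392 CPM (1.82, adjusted p = 2.60e-05). Ankrd31, needed for meiotic breaks on the sex chromosomes, had 0.363 ± 0.0427, 1.87 ± 0.337 and 1.22 ± 0.266 CPM (2.37, adjusted p = 2.13e-06). In contrast Iho1, a partner of the break machinery listed as Ccdc36, went from 2.06 ± 0.268 to 3.87 ± 0.0842 CPM in Auxin and to 1.13 ± 0.113 CPM after washout, below Mock (-0.87, adjusted p = 1.74e-04), the same order of groups as in Prdm1.

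Other meiosis genes outside the list were called lower in Auxin. Psmc3ip and Mnd1, which form a cofactor of strand exchange, went from 16.5 ± 1.04 to 8.15 ± 0.736 CPM (-1.02) and from 6.33 ± 0.361 to 3.85 ± 1.13 CPM (-0.72). The meiotic cohesin subunit Rec8 also fell, from 8.25 ± 0.942 to 4.76 ± 0.349 CPM (-0.80), beside the rises of its partner subunits Stag3 and Smc1b.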
